A study of Rattus norvegicus with 18 samples.

Results

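The genes described here build the contractile unit of striated muscle, the sarcomere, apart from its myosins: the thin filament, the Z-disc that anchors it, and the M-band, titin and other thick filament partners with 2 ubiquitin ligases of the same structures. The list holds 39 genes, taken by symbol, and the arrays carried a probe for 35 of them among the 12198 genes with a probe of their own on the larger array design (46 probes) and for 21 among the 6455 genes of the smaller one (27 probes). No value was found for Actc1 (cardiac actin), Des (desmin), Xirp1 or Synpo2l, whose expression is not analysed here. Each gene was read from its probe with the highest mean, and the larger and the smaller design were kept apart.

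The samples were neonatal rat cardiomyocytes, prepared from ventricles of day 1 rats (n = 24), purified on Percoll gradients and held in cardiac media for 24 h. At that point 6 dishes were extracted as time zero. The other 12 dishes had their medium diluted to 50% either with hESC media that had not been conditioned or with hESC media conditioned by stem cells, and were extracted after 24 h or 48 h, while FBS stayed at 5% and HS at 10% in each. The groups therefore are time zero, unconditioned 24 h, conditioned 24 h, unconditioned 48 h and conditioned 48 h, with 4, 2, 2, 2 and 2 arrays on the larger design and 2, 1, 1, 1 and 1 on the smaller. No further culture without added hESC media was carried to 24 h or 48 h, so a change against time zero holds both the time in culture and the new medium. Strain, sex and the stem cell line are not given in the sources used here. The labels do not say that dishes came from separate preparations, and p-values reflect array-to-array spread alone, part or all of which may be technical.

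In the sarcomere, calcium binds troponin C, troponin I and troponin T shift tropomyosin along actin, and myosin heads can then pull the thin filament. The Z-disc crosslinks thin filaments with alpha-actinin and carries signalling and chaperone proteins, and the M-band crosslinks thick filaments in the middle of the sarcomere, with titin spanning from one to the other. Many of these proteins exist as fast skeletal, slow skeletal and cardiac isoforms from separate genes, and the heart of rodents exchanges slow skeletal troponin I for cardiac troponin I around birth. Cardiomyocytes in culture can take their sarcomeres apart and rebuild them.

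Values are 1-colour intensities scaled to the median of the arrays of a design. Changes are log2 differences ± SE from a limma fit to the 12 arrays of the larger design, given relative to the median change of all 23694 tested probes, and adjusted p-values are Benjamini-Hochberg values over those probes. They test the change before that median was subtracted. A change is called at an adjusted p under 0.05. As a measure for the unadjusted counts given below, 518 to 4575 of the 23694 tested probes, by comparison, had an unadjusted p under 0.05. Of the 35 measured genes 34 passed the filter on low intensity, and 1, Tnnt3, did not. By part, 11 of 13 listed thin filament genes, 17 of 20 Z-disc genes and 6 of 6 genes of the M-band, titin, thick filament and turnover were tested.

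The label of the cells was checked against their markers: Nkx2-5, Gata4, Ryr2, Pln, Nppa, Myl2, Myl3, Atp2a2 and Casq2 all passed the filter, and their summed intensity lay between 93790 and 196800. On the larger design 3 arrays stood apart from the other 9 on the first principal component, which held 35.1% of the variance. These were replicates 4 and 5 of time zero together with replicate 2 of unconditioned 48 h. Their upper quartile was 22.4 to 25.7 times their lower one, against 38.7 to 47.8 on the others. The members' probes were among the brightest on the arrays, with 27 of 35 above the 90th percentile of mean intensity and 14 above the 99th, and single readings reached 100% (Tnnt2) and 89.8% (Mybpc3) of an array's maximum. The files carry no saturation flag, so whether changes of the brightest probes were compressed was not tested.

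Across the list few genes were called, and the called ones belonged to different structures. For the medium at 24 h 32 of 34 genes lay below the median of all probes, most of them without a call. Tnnt1, slow skeletal troponin T, was 7.38-fold higher after 24 h in unconditioned medium than at time zero, while in conditioned medium its change against time zero was not called. Myom2, the M-band protein also called M-protein, was 5.83-fold and 6.01-fold lower after 24 h and 48 h in conditioned medium. Tcap (telethonin, which caps titin at the Z-disc) fell with time in conditioned medium and at 48 h also in unconditioned medium, Nebl (nebulette, a thin filament binding protein of the cardiac Z-disc) rose in conditioned medium, and the tropomyosin gene Tpm2 rose at 48 h in both media. Tpm1, the other tropomyosin gene, rose at 48 h in conditioned medium on 1 of its 2 probes. Ldb3 and Ttn had calls against time zero on dimmer probes, where their brightest probes had none. The cardiac troponins, alpha-actinin and most Z-disc genes passed no test.

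**Figure D1:**
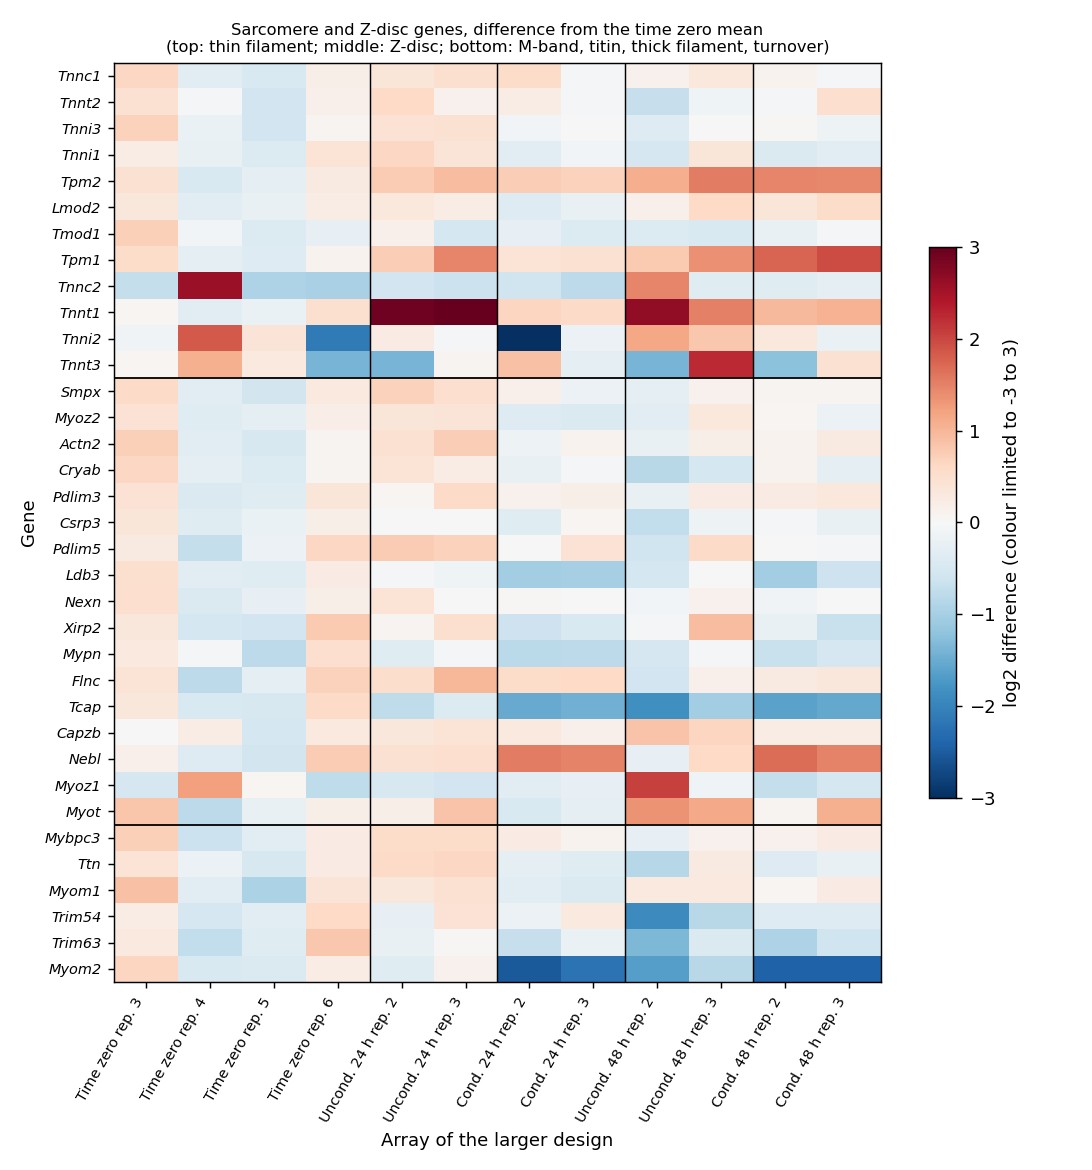
Log2 difference of median-scaled intensity from the time zero mean for the 35 measured genes (rows, in 3 blocks from top to bottom: thin filament, Z-disc, and M-band with titin, thick filament and turnover) on the 12 arrays of the larger design (columns, by group). Red is higher and blue lower than time zero, with colours limited to -3 to 3. Most rows are pale in every group, Tnnt1 is red on both unconditioned 24 h arrays, Myom2 is blue on all 4 conditioned arrays, and Tnnc2 and Myoz1 are red on replicate 4 of time zero and on replicate 2 of unconditioned 48 h.

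Troponin T holds the troponin complex on tropomyosin, and Tnnt1 encodes its slow skeletal form. At time zero Tnnt1 read 184, 138, 152 and 246 on replicates 3 to 6. In unconditioned medium it read 1332 and 1628 at 24 h and 1106 and 504 at 48 h. In conditioned medium it read 273 and 261 at 24 h and 346 and 363 at 48 h. Every unconditioned array thus lay above every conditioned and every time zero array, and the 2 unconditioned 48 h arrays differed from each other more than the arrays of any conditioned group did. The change against time zero was 2.88 ± 0.34 at 24 h (adjusted p = 0.000395) and 2.08 ± 0.34 at 48 h (adjusted p = 0.00219) in unconditioned medium. In conditioned medium it was 0.43 ± 0.34 at 24 h (adjusted p = 0.431) and 0.85 ± 0.34 at 48 h (adjusted p = 0.0914), neither of which was called. Conditioned against unconditioned medium, Tnnt1 was 3.62-fold lower over both times (-1.85 ± 0.28, adjusted p = 0.00295) and 5.55-fold lower at 24 h (-2.47 ± 0.40, adjusted p = 0.0101). At 48 h it was -1.25 ± 0.40 (adjusted p = 0.445), which was not called and was -0.45 without unconditioned 48 h replicate 2 and -2.08 without replicate 3. The size at 48 h rested on unconditioned 48 h replicate 2, one of the 3 arrays that stood apart. Without that array the change against time zero in unconditioned medium at 48 h was 1.31 (adjusted p = 0.0481), and without all 3 it was 1.25 (adjusted p = 0.0122), while the medium effect over both times was -1.46 without the 3. The call at 24 h was lost in 5 of 23 alternatives. Without a filter on intensity the limma adjusted p was 0.0817, and without the intensity trend it was 0.072. The call was also lost without unconditioned 24 h replicate 3 (-2.37), conditioned 24 h replicate 2 (-2.53) or conditioned 24 h replicate 3 (-2.43). Each of these omissions leaves 1 array in a group whose spread is then taken from the others. Tnnt1 had 1 probe on the larger design and was not measured on the smaller one.

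**Figure D2:**
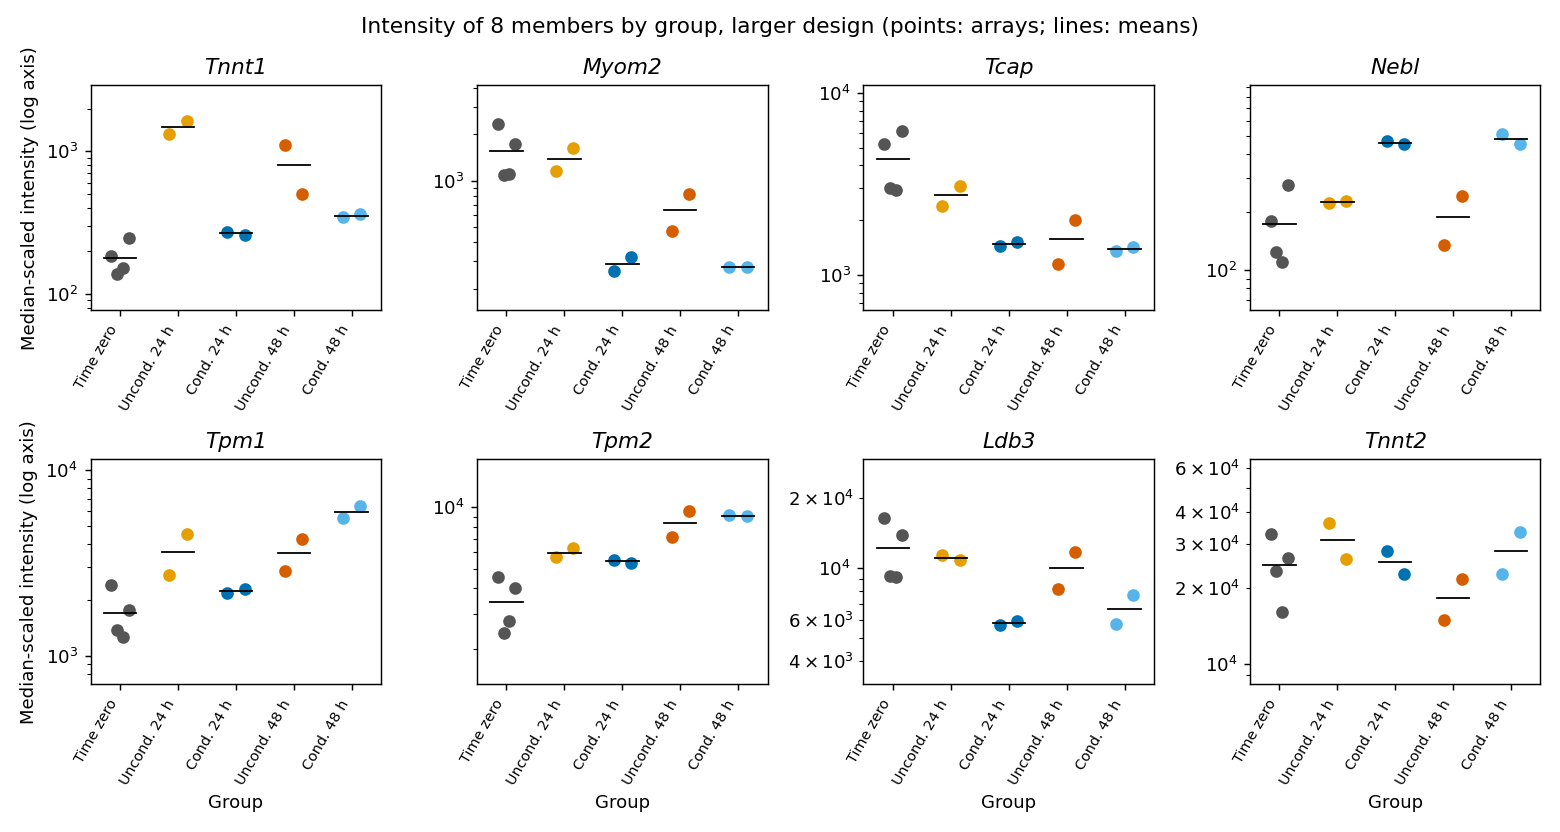
Median-scaled intensity (log axis, a separate range for each gene) of 8 genes in the 5 groups of the larger design. Each point is an array and each line the mean of its group. Tnnt1 is highest in unconditioned medium, Myom2 and Ldb3 are lowest in conditioned medium, Nebl is highest there, Tcap is lower in the groups at 48 h and in conditioned medium at 24 h than at time zero, Tpm2 and the brighter probe of Tpm1 are higher at 48 h, and for cardiac troponin T, Tnnt2, the later groups overlap time zero, with both conditioned arrays above both unconditioned ones at 48 h.

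Tnnt1 is usually a gene of slow skeletal fibres, so skeletal muscle genes were read beside it. Of 21 skeletal markers 17 were measured, and 9 of these, among them the myogenic factors Myod1, Myog and Myf6, were below the filter. The summed intensity of the 17 was 4736 to 8098 at time zero, 7486 to 9036 in unconditioned and 6400 to 7254 in conditioned medium at 24 h, and 6720 to 9229 and 6144 to 6420 at 48 h. Casq1, the skeletal calcium buffer calsequestrin, was lower in conditioned medium over both times (-1.32 ± 0.27, adjusted p = 0.031), and Mybph, a myosin-binding protein, was lower in conditioned medium at 48 h than at time zero (-3.41 ± 0.68, adjusted p = 0.00667). Against time zero no skeletal marker was called by limma in unconditioned medium, with 2 of 8 at an unadjusted p under 0.05 at each time. Their part in the Tnnt1 result was not tested.

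The troponin genes lie in troponin I and troponin T pairs in the rat genome. In RefSeq's order of the GRCr8 assembly no protein-coding gene lies between Tnni3 and Tnnt1, 1 lies between Tnni1 and Tnnt2, and 5 lie between Tnni2 and Tnnt3. Tnni3, cardiac troponin I and the neighbour of Tnnt1, read 36300, 19650, 15280 and 23890 at time zero, 30510 and 31050 in unconditioned medium at 24 h and 21190 and 22550 in conditioned medium at 24 h. The 48 h readings were 17220 and 22680 in unconditioned and 23150 and 20440 in conditioned medium. All later groups lay within the range of time zero. The low end of that range, 19650 and 15280, came from replicates 4 and 5, which were among the arrays that stood apart. The conditioned 24 h readings and the 48 h readings lay below the other time zero readings, 36300 and 23890. The change of Tnni3 was 0.26 ± 0.34 in unconditioned medium at 24 h (adjusted p = 0.722), beside 2.88 for Tnnt1 on the same arrays. Tnnt2, cardiac troponin T, read 32660, 23270, 16080 and 26280 at time zero, 36250 and 26050, and 27990 and 22740 at 24 h, and 14850 and 21640, and 22750 and 33510 at 48 h, unconditioned before conditioned. The groups overlapped at 24 h and the conditioned arrays were both higher at 48 h. Its medium effect over both times was 0.08, with a 95% interval of -0.51 to 0.68. Tnnc1, the troponin C of cardiac and slow fibres, was at -0.27 ± 0.28 (adjusted p = 0.877). Tnni1, slow skeletal troponin I and the isoform of the fetal heart, was at -0.59 ± 0.27 over both times (adjusted p = 0.541), with 14160 to 25110 at time zero, 28980 and 24810 in unconditioned and 15030 and 17990 in conditioned medium at 24 h. Of the slow isoforms 1 of 2, Tnnt1, was called for the medium, beside 0.92% of all probes over both times and 0.245% at 24 h. Of the 5 cardiac isoforms tested (Tnnt2, Tnni3, Tnnc1, Myoz2 and Mybpc3) none was called in any of the 8 comparisons by limma. Of all probes 0% to 6.47% were called there, and 1 of the 40 cardiac tests had an unadjusted p under 0.05. For the medium at 24 h Tnni1 was at -0.72 and the cardiac Myoz2 at -0.81. With so few genes these counts do not set slow and cardiac isoforms apart.

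The fast isoforms gave no call in any comparison by limma, with 1 of 24 tests at an unadjusted p under 0.05, and 2 arrays read apart from the others. Tnnc2, fast troponin C, read 3216 on time zero replicate 4 and 1464 on unconditioned 48 h replicate 2, and 273 to 431 on the other 10 arrays. Myoz1, the calsarcin of fast fibres, read 494 and 865 on these arrays and 123 to 218 elsewhere. Both arrays are among the 3 that stood apart. Tnni2, fast troponin I, ranged from 9.06 to 141 at time zero, and on conditioned 24 h replicate 2 its value of 1.13 was raised to the floor of 4.78. The largest of its changes was -1.80 ± 0.91 in conditioned medium at 24 h (adjusted p = 0.429). Tnnt3, fast troponin T, was between 2.40 and 59.4 on 10 arrays and at the lowest value of the file on the other 2.

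The tropomyosins lie in the groove of actin and move under troponin. Tpm2 read 4562, 2422, 2752 and 4011 at time zero, 5668 and 6313 in unconditioned and 5502 and 5338 in conditioned medium at 24 h. The 48 h readings were 7104 and 9596 in unconditioned and 9151 and 9011 in conditioned medium. All arrays of the later groups lay above all time zero arrays. The change at 48 h was 1.30 ± 0.32 (adjusted p = 0.0293) in unconditioned and 1.29 ± 0.32 (adjusted p = 0.00915) in conditioned medium. At 24 h it was 0.66 ± 0.32 (adjusted p = 0.334) and 0.52 ± 0.32 (adjusted p = 0.296). The medium effect over both times was -0.09, with a 95% interval of -0.63 to 0.46. The call in unconditioned medium was lost in 13 of 23 alternatives with adjusted p up to 0.274, among them the omission of either unconditioned 48 h array (0.0554 without replicate 2, 0.21 without replicate 3). It was also lost without time zero replicate 5 (0.0719) and without any 1 array of the unconditioned 24 h, conditioned 24 h or conditioned 48 h groups (0.0522 to 0.0609). The call in conditioned medium was lost without conditioned 48 h replicate 2 (0.147) or replicate 3 (0.151).

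Tpm1 encodes the alpha tropomyosin of striated muscle and, by alternative splicing, of other cells, and its 2 probes differed. The brighter probe read 2411, 1375, 1262 and 1760 at time zero, 2731 and 4521 in unconditioned and 2186 and 2279 in conditioned medium at 24 h. The 48 h readings were 2858 and 4276 in unconditioned and 5505 and 6388 in conditioned medium. The conditioned 48 h arrays lay above all others. The change in conditioned medium at 48 h was 1.68 ± 0.34 (adjusted p = 0.0022), and in unconditioned medium it was 0.91 ± 0.34 at 24 h (adjusted p = 0.187) and 1.07 ± 0.34 at 48 h (adjusted p = 0.104). The second probe was at -0.04 ± 0.38 in conditioned medium at 48 h (adjusted p = 0.906). The mean of both probes was at 0.84 there and still called. Leaving out conditioned 48 h replicate 3 ended the call (adjusted p = 0.0801). The difference between the medium effects at 48 h and 24 h was 1.23 ± 0.55 for the brighter probe (unadjusted p = 0.0189, adjusted p = 1). The files do not say which Tpm1 transcripts each probe detects, so a change of splicing and a change of level cannot be told apart here.

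Lmod2 (leiomodin, which lengthens thin filaments at their pointed ends) and Tmod1 (tropomodulin, which caps those ends) were not called. Lmod2 read 2298 to 3640 at time zero and 2212 to 4367 in the later groups, and its medium effect was -0.58 ± 0.35 at 24 h (adjusted p = 1) and -0.09 ± 0.35 at 48 h (adjusted p = 0.974). Tmod1 read 2524 to 5559 at time zero and 2329 to 3735 later. Its 2 probes were at -0.30 and -0.91 in conditioned medium at 48 h against time zero, neither called.

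The upstream sequence of 3 genes that changed or differed is shown with that of Ldb3, a Z-disc gene taken up further on, so that the motif counts can be read against the letters. Sequences are RefSeq's for GRCr8 and run 5′ to 3′ from 250 bases before to 50 bases after the annotated start, and 31 of the 39 genes had one. Among these are Actc1, Des, Xirp1 and Synpo2l, which had no value on the arrays. Capitals mark matches to 5 motifs searched on both strands: the E-box CANNTG, the MCAT element CATTCC, the TATA sequence TATAAA, the MEF2 site and the CArG box. Tnnt1 lies on the plus strand at chr1:78348785-78349084, Tpm2 on the minus strand at chr5:62575677-62575976, Tpm1 on the minus strand at chr8:76543366-76543665 and Ldb3 on the minus strand at chr16:9924630-9924929.
Tnnt1: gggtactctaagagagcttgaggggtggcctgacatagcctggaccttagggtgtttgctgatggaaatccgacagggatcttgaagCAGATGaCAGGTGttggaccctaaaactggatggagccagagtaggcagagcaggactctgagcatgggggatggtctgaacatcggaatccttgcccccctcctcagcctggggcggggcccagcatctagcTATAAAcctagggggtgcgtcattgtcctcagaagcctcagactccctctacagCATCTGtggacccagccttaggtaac
Tpm2: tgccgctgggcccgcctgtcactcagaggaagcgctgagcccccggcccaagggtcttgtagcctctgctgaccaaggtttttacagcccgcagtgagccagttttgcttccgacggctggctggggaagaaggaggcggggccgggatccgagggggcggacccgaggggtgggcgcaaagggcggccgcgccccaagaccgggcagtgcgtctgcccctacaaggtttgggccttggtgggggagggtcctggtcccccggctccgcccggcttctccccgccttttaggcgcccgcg
Tpm1: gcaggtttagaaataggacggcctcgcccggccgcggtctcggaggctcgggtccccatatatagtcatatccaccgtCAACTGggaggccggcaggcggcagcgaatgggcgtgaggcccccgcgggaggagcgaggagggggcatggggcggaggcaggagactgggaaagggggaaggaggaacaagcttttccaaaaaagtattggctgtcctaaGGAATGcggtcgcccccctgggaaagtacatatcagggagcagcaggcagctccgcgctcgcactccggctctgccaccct
Ldb3: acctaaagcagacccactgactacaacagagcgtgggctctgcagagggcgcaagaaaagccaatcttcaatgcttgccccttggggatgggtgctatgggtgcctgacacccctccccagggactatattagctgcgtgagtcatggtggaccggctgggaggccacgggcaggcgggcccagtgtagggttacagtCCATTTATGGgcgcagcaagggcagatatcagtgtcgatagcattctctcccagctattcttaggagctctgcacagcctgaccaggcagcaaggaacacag
The Tnnt1 window held 3 E-boxes and 1 TATA sequence, the Tpm1 window 1 E-box and 1 MCAT element, the Ldb3 window 1 CArG box, and the Tpm2 window no match. No matches overlapped each other in these 4 windows. Of the 31 genes 25 had an E-box in the window, against 72.1% of all 33469 promoters of the table. A MEF2 site stood in 8 of 31 (Myoz1, Myoz2, Xirp1, Xirp2, Synpo2l, Smpx, Ttn and Mybpc3), against 3.29% of all promoters, and a CArG box in 3 of 31 (Actc1, Ldb3 and Nebl), against 1.64%. The MCAT element stood in 8 of 31 and the TATA sequence in 4 of 31, each against 14.2% of all. A match is a description of letters and does not show that a factor binds.

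At the M-band, myomesins crosslink thick filaments to each other and to titin. Myom2 read 2320, 1086, 1103 and 1731 at time zero, and 1151 and 1626 in unconditioned medium at 24 h, within the range of time zero. The low end of that range, 1086 and 1103, came from replicates 4 and 5, which stood apart. In unconditioned medium at 48 h Myom2 read 475 and 825. In conditioned medium it read 260 and 320 at 24 h and 277 and 274 at 48 h. All 4 conditioned arrays lay below all unconditioned and time zero arrays, and they differed little from each other. Against time zero the change was -2.54 ± 0.36 in conditioned medium at 24 h (adjusted p = 0.000736) and -2.59 ± 0.36 at 48 h (adjusted p = 0.000343). In unconditioned medium it was -0.30 ± 0.36 at 24 h (adjusted p = 0.936) and -1.25 ± 0.36 at 48 h (adjusted p = 0.0746), the latter called in 6 of 23 alternatives. Conditioned against unconditioned medium Myom2 was at -1.80 ± 0.29 over both times (adjusted p = 0.00503), at -2.26 ± 0.41 at 24 h (adjusted p = 0.0211) and at -1.36 ± 0.41 at 48 h (adjusted p = 0.41, not called). Without the 3 arrays that stood apart both Myom2 values at 48 h that were not called passed the test, at -1.27 against time zero in unconditioned medium (adjusted p = 0.0161) and -1.52 for the medium (adjusted p = 0.0198). The call over both times was lost without a filter on intensity (adjusted p = 0.0606). That at 24 h was lost in 6 alternatives, among them the omission of unconditioned 24 h replicate 2 (0.0666) or 3 (0.391) or of conditioned 24 h replicate 2 (0.345) or 3 (0.169). Myom2 had 1 probe on the larger design and none on the smaller.

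Myom1, the myomesin found in all striated muscle, differed less. It read 3147 to 11260 at time zero, 7639 and 8295 in unconditioned and 4812 and 4474 in conditioned medium at 24 h, and 7493 and 7451, and 6280 and 7178 at 48 h. The conditioned arrays were below the unconditioned ones at each time but within the range of time zero, and the medium effect of -0.55 ± 0.32 over both times was not called (adjusted p = 0.67). The low end of that range, 4867 and 3147, came from time zero replicates 4 and 5, which stood apart. The conditioned readings lay below the other time zero readings, 11260 and 7892. Mybpc3, cardiac myosin-binding protein C, was at -0.16 ± 0.29 (adjusted p = 0.963), and its second probe was at -0.08. Titin, the giant spring of the sarcomere, had 3 probes that did not move together. Its brightest probe was at -0.55 over both times, and the others were at 0.04 and 0.51, none called. Against time zero in unconditioned medium at 48 h the 2 dimmer Ttn probes were at -1.90 ± 0.44 (adjusted p = 0.024) and -1.38 ± 0.33 (adjusted p = 0.0279), and the brightest at -0.31 ± 0.35 (adjusted p = 0.832). The probes may report different titin exons, which the files do not state.

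The 2 ubiquitin ligases of the sarcomere, which mark muscle proteins for breakdown, passed no test. Trim54 (MuRF3) read 2582 to 5510 at time zero, 971 and 2063 in unconditioned and 2773 and 2774 in conditioned medium at 48 h. Its change in unconditioned medium at 48 h was -1.38 ± 0.38 (adjusted p = 0.0616), called in 6 of 23 alternatives, and its medium effect at 48 h was 0.79 ± 0.44 (adjusted p = 0.537). Without the 3 arrays that stood apart these were -1.23 (adjusted p = 0.0305) and 0.49 (adjusted p = 0.524). Trim63 (MuRF1) read 1868 to 5384 at time zero and 1208 to 2284 at 48 h, and its change was -0.91 ± 0.40 in unconditioned and -0.92 ± 0.40 in conditioned medium (adjusted p = 0.316 and 0.314). Fbxo32, the other ubiquitin ligase of muscle wasting, which is not of the 39, was lower in unconditioned medium at 48 h (-1.91 ± 0.43, adjusted p = 0.0193).

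At the Z-disc, Tcap read 5241, 3018, 2932 and 6153 at time zero and 2408 and 3100 in unconditioned medium at 24 h. In conditioned medium at 24 h it read 1447 and 1521, and at 48 h it read 1151 and 2000 in unconditioned and 1357 and 1418 in conditioned medium. The arrays of these 3 groups lay below all time zero arrays. The change was -1.65 ± 0.35 in conditioned medium at 24 h (adjusted p = 0.0279), -1.45 ± 0.35 at 48 h in unconditioned medium (adjusted p = 0.0326) and -1.73 ± 0.35 in conditioned medium at 48 h (adjusted p = 0.0114). In unconditioned medium at 24 h it was -0.78 ± 0.35 (adjusted p = 0.642). The effect of the medium was not called at 24 h (-0.89 ± 0.41, adjusted p = 0.927) or at 48 h (-0.31 ± 0.41, adjusted p = 0.965). The conditioned 24 h call was lost in 8 of 23 alternatives, among them the omission of time zero replicate 3 (0.0633), of conditioned 24 h replicate 2 (0.324) or 3 (0.291), or of either conditioned 48 h array (0.052). The conditioned 48 h call was lost without conditioned 48 h replicate 2 (0.161) or 3 (0.151). The unconditioned 48 h call was lost in 12, among them the omission of time zero replicate 3 (0.0853) or 6 (0.0585), of unconditioned 48 h replicate 2 (0.309), and of any 1 array of the 24 h groups or the conditioned 48 h group (0.0537 to 0.0608). On the smaller design the Tcap probe read 6690 and 8406 at time zero, 4406 and 2687 in unconditioned medium at 24 h and 48 h, and 1429 and 1160 in conditioned medium. The order of the groups was similar there, with the conditioned arrays lowest.

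Nebl moved the other way. It read 181, 124, 111 and 276 at time zero, 223 and 227 in unconditioned medium at 24 h and 136 and 244 at 48 h. In conditioned medium it read 469 and 451 at 24 h and 512 and 454 at 48 h. All 4 conditioned arrays lay above all 8 others. Nebl was measured by a single probe, on the larger design only. The change in conditioned medium was 1.33 ± 0.37 at 24 h (adjusted p = 0.0307) and 1.41 ± 0.37 at 48 h (adjusted p = 0.0143), and in unconditioned medium 0.29 ± 0.37 (adjusted p = 0.725) and 0.16 ± 0.37 (adjusted p = 0.924). Conditioned against unconditioned medium Nebl was at 1.13 ± 0.30 over both times (adjusted p = 0.0694), 1.02 ± 0.43 at 24 h (adjusted p = 0.769) and 1.23 ± 0.43 at 48 h (adjusted p = 0.305). The effect over both times was called in 9 of 23 alternatives, with 1.03 (adjusted p = 0.00674) without the 3 arrays that stood apart, where the effect at 24 h was called too (1.02, adjusted p = 0.0304), and also without time zero replicate 4 (0.02), time zero replicate 6 (0.026) or unconditioned 48 h replicate 3 (0.0351). The conditioned 24 h call was lost in 9, among them the omission of time zero replicate 5 (0.0824), unconditioned 24 h replicate 3 (0.0505), conditioned 24 h replicate 2 (0.324) or 3 (0.301) and either conditioned 48 h array (0.0525 and 0.0527). The conditioned 48 h call was lost in 3, without a filter (0.0599) and without conditioned 48 h replicate 2 (0.199) or 3 (0.146).

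Ldb3 (Cypher or ZASP, which ties alpha-actinin to protein kinase C) was measured by 6 probes. Its brightest probe read 16420, 9278, 9197 and 13900 at time zero, 11370 and 10880 in unconditioned and 5702 and 5962 in conditioned medium at 24 h. The 48 h readings were 8172 and 11820 in unconditioned and 5771 and 7670 in conditioned medium. All conditioned arrays lay below all others. The medium effect over both times was -0.83 ± 0.27 (adjusted p = 0.259) for this probe and -0.74 to -1.20 for the other 5, none called. Against time zero in conditioned medium at 24 h 3 of the other probes were called, at -1.89 (adjusted p = 0.00633), -1.64 (adjusted p = 0.0399) and -1.48 (adjusted p = 0.0375), and the brightest was at -1.20 ± 0.33 (adjusted p = 0.109). The mean of the 6 probes was called there, at -1.47 (adjusted p = 0.0363). Without the 3 arrays that stood apart the brightest probe was called over both times at -0.86 (adjusted p = 0.0044) and in conditioned medium at 24 h at -1.35 (adjusted p = 0.000732). On the smaller design its brightest Ldb3 probe read 11640 and 11760 at time zero, 9224 and 9778 in unconditioned and 3312 and 5353 in conditioned medium.

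**Figure D3:**
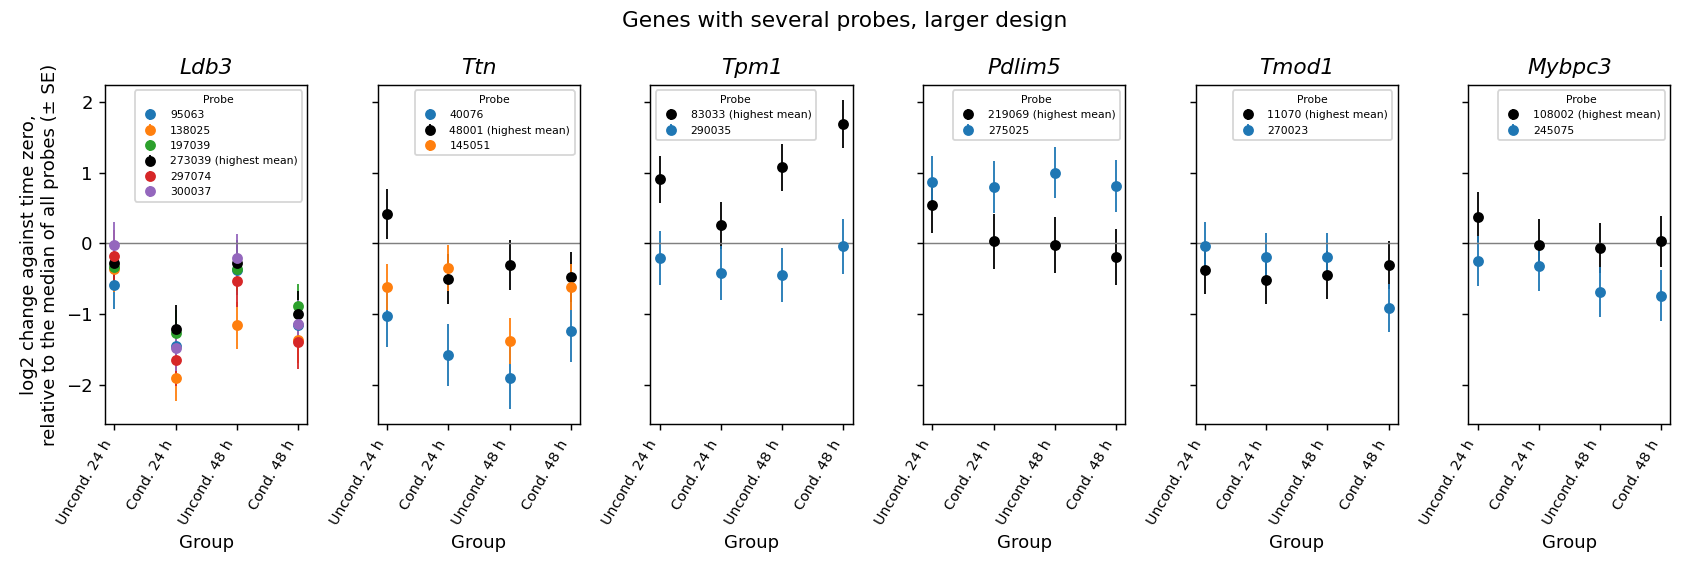
Log2 change against time zero (± SE, relative to the median of all probes) in the 4 later groups of the larger design for the 6 genes with several probes. Black points are the probe with the highest mean, on which the other values of the text rest, and coloured points are the other probes. The 6 Ldb3 probes lie close together, from -1.20 to -1.89 in conditioned medium at 24 h, while the probes of Ttn and Tpm1 lie apart, with 1.68 and -0.04 for Tpm1 in conditioned medium at 48 h.

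The other 14 Z-disc genes tested gave no call in any comparison by limma, and 5 of their 112 tests had an unadjusted p under 0.05. Actn2, the alpha-actinin that crosslinks thin filaments in heart muscle, was at -0.29 over both times with a 95% interval of -0.88 to 0.30. It read 12730 to 29110 at time zero, 24420 and 29640 in unconditioned and 15970 and 19130 in conditioned medium at 24 h, and 15150 and 19830, and 18930 and 21270 at 48 h. The conditioned arrays were the lower ones at 24 h and overlapped the unconditioned ones at 48 h. Xirp2, an actin-binding Xin-repeat protein, was at -0.93 ± 0.33 over both times (adjusted p = 0.313), with 4068 and 5361 in unconditioned and 2497 and 2823 in conditioned medium at 24 h, and 3704 and 7341, and 3321 and 2411 at 48 h. Without the 3 arrays that stood apart it was called at -1.07 (adjusted p = 0.00392). Mypn (myopalladin, which binds alpha-actinin and nebulin-type proteins) was at -0.98 ± 0.34 in conditioned medium at 24 h (adjusted p = 0.276), with 1852 to 4488 at time zero and 1806 and 1852 there, and was called at -1.18 (adjusted p = 0.00135) without the 3 arrays. Myoz2, the cardiac calsarcin that binds calcineurin, was at -0.81 ± 0.37 for the medium at 24 h (adjusted p = 0.936). Myoz1 was at -1.75 ± 0.61 for the medium at 48 h (adjusted p = 0.468), a value that held its high reading on unconditioned 48 h replicate 2. Without that array it was -0.43, and without replicate 3 it was -3.09.

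Capzb, the beta subunit of the protein that caps barbed ends of actin, was at 0.73 ± 0.30 in unconditioned medium at 48 h (adjusted p = 0.251). Flnc (filamin C) was at 0.57 ± 0.38 and Pdlim5 (a PDZ and LIM protein that binds alpha-actinin) at 0.54 ± 0.39 at 24 h in unconditioned medium (adjusted p = 0.536 and 0.583), which were 0.26 and 0.32 without the 3 arrays that stood apart. A second Pdlim5 probe was at 0.80 to 1.00 in all 4 groups against time zero without a call. Cryab, a small heat shock protein that protects desmin and titin, was at -0.69 ± 0.33 at 48 h in unconditioned medium (adjusted p = 0.396), and the difference between its medium effects was 0.85 ± 0.54 (unadjusted p = 0.0723, adjusted p = 1). Csrp3 (muscle LIM protein), Nexn (nexilin, an actin-binding protein), Pdlim3 (another PDZ and LIM protein) and Smpx (a small muscle protein) had medium effects over both times between -0.31 and 0.00. Myot (myotilin, a crosslinker of actin) read 15.1 to 66.7 over all arrays, and none of its changes passed the test.

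For the effect of the medium over both times, 2 of the 34 tested genes were called, both lower, Tnnt1 and Myom2, beside 0.92% of all probes. At 24 h the same 2 genes were called, both lower, beside 0.245% of all probes. At 48 h no gene was called by limma, beside 0.148% of all probes. There 5 of the 34 genes and 2060 of the 23694 probes had an unadjusted p under 0.05. Those 5 genes were Nebl, Myom2, Tnnt1, Myoz1 and Trim54. No probe of the array was called for the difference between the medium effects (0% of all probes), where 2 of the 34 genes and 518 of all probes had an unadjusted p under 0.05. Those 2 were Tpm1, given above, and Tnnt1, whose medium effect was less negative at 48 h by 1.21 ± 0.56 (unadjusted p = 0.0234, adjusted p = 1). That Tnnt1 value was 2.02 without unconditioned 48 h replicate 2 and 0.38 without replicate 3. The next were Myoz1 (-1.98 ± 0.87, unadjusted p = 0.0526), at -0.66 without the former array and -3.33 without the latter, and Myom2 (0.88 ± 0.58, unadjusted p = 0.0841).

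Most of the list sat below the median of all probes in conditioned medium at 24 h without a call. There 32 of 34 genes lay below that median, the list's median being -0.51, and 29 of 34 lay below it over both times (median -0.32). At 24 h both conditioned arrays were below both unconditioned arrays in 22 of 34 genes, beside 22.4% of all probes in that direction, and above them in 2, beside 24.1%. Bright probes differed in this with their level. Over the 3385 probes above the 90th percentile of mean intensity the median at 24 h was -0.02, with 52.9% below the median of all probes, and the 27 list genes among them had a median of -0.50, with 27 of 27 below. Over the 325 other probes above the 99th percentile it was -0.22, with 76% below, beside -0.51 and 14 of 14 for the list genes at that level. The part of intensity in the shift was not tested. At 48 h 23 of 34 lay below that median (list median -0.19), and the conditioned arrays were both lower in 10 genes, beside 11.6% of all probes, and both higher in 7, beside 29.9%. By structure the medians at 24 h were -0.50 for the thin filament, -0.52 for the Z-disc and -0.60 for the M-band, titin, thick filament and turnover, and at 48 h they were -0.09, -0.23 and -0.11. With quantile normalization the median of the whole list was -0.321 at 24 h and -0.317 at 48 h. The smaller shift at 48 h was therefore not seen with that scaling. The genes share arrays and cells and are not independent of each other, so these are descriptions without a test. Cardiomyocyte markers moved with them: 9 of 9 lay below that median at 24 h (list median -0.41), with none called by limma and 1 at an unadjusted p under 0.05, and their summed intensity was 185900 to 196800 in unconditioned and 131300 to 163400 in conditioned medium, against 93790 to 182800 at time zero. Markers of other cell types lay on either side. Of the 6 smooth muscle and pericyte markers 4 lay below (list median -0.67), with Cnn1 (calponin) at -1.68 (adjusted p = 0.0567) and Myh11 (smooth muscle myosin) at -1.14 (adjusted p = 0.436). Of the fibroblast markers 4 of 4 lay below (median -0.23), of the leukocyte markers 4 of 5 (median -0.19), with Cd74 (the invariant chain of antigen presentation) at -3.51 (adjusted p = 0.077), and of the endothelial markers 1 of 5 (median 0.21). None of these was called by limma for the medium at 24 h, and Cnn1, Myh11, Tagln, Thy1 and Cd74 had an unadjusted p under 0.05. The cardiomyocyte sums at 24 h lay above the time zero range in unconditioned medium and within it in conditioned medium. In these bulk samples a change in cardiomyocyte number and a change in RNA per cardiomyocyte cannot be told apart, in either medium. The part of any of these markers in the shift was not tested.

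**Figure D4:**
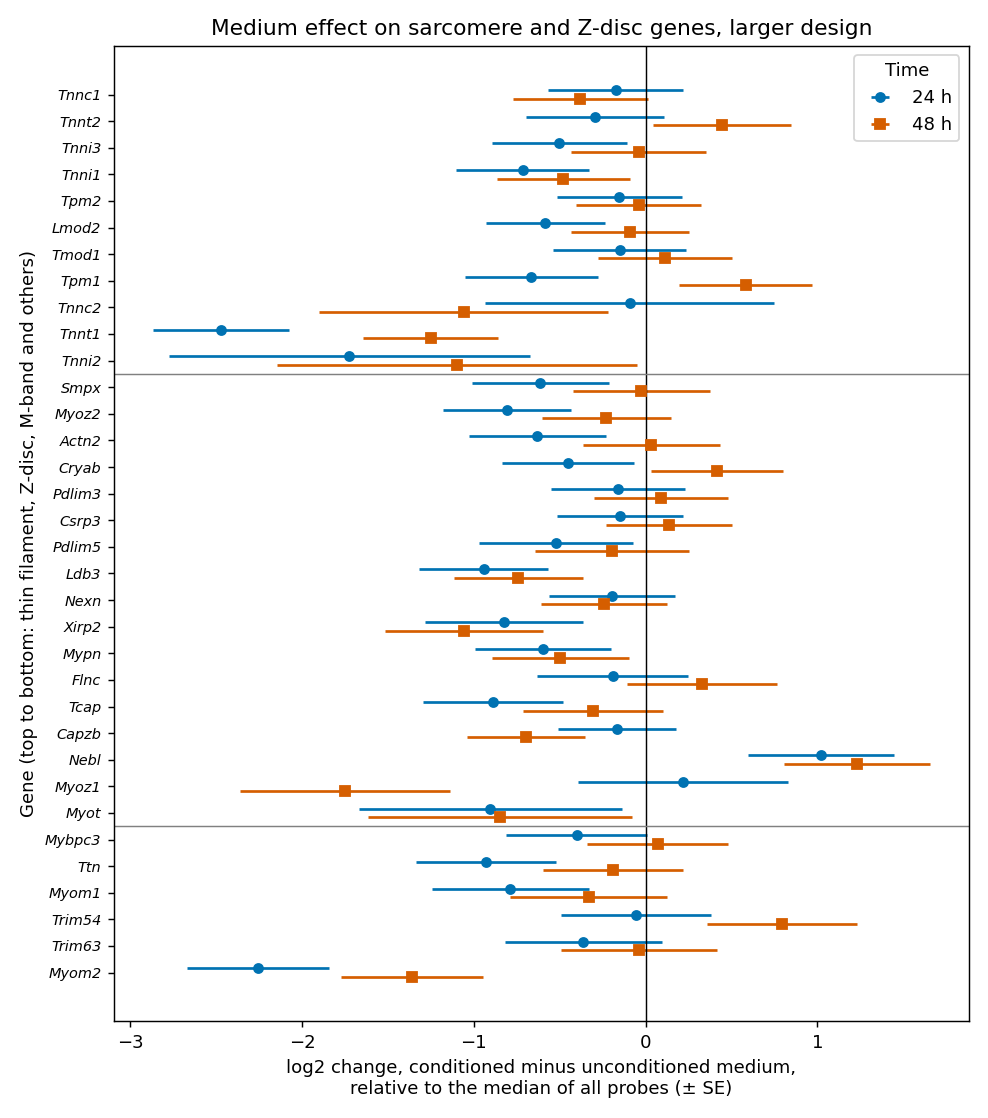
Log2 change of conditioned against unconditioned medium (± SE, relative to the median of all probes) at 24 h (blue circles) and 48 h (orange squares) for the 34 tested genes of the larger design, with grey lines between the thin filament, Z-disc and M-band and other genes. At 24 h 32 of 34 points lie left of 0, with Tnnt1 at -2.47 and Myom2 at -2.26 farthest left, and Nebl lies to the right at both times.

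Against time zero, 1 of 34 genes was called in unconditioned medium at 24 h, higher, beside 0.815% of all probes. In conditioned medium at 24 h 3 were called (Nebl higher, Myom2 and Tcap lower), beside 3.17%. In unconditioned medium at 48 h 3 were called (Tnnt1 and Tpm2 higher, Tcap lower), beside 2.9%, and in conditioned medium at 48 h 5 were called (Tpm1, Tpm2 and Nebl higher, Myom2 and Tcap lower), beside 6.47%. These comparisons share the time zero arrays. The median over the list was 0.18 and -0.32 at 24 h and -0.03 and -0.20 at 48 h, unconditioned before conditioned, and the first of these was -0.13 with quantile normalization.

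Markers of other cell types were called against time zero at both times. At 24 h the endothelial receptor Tek was higher in unconditioned (1.79 ± 0.35, adjusted p = 0.0079) and conditioned medium (2.01 ± 0.35, adjusted p = 0.00118). The pericyte proteoglycan Cspg4 was likewise higher (1.95 ± 0.41, adjusted p = 0.016, and 2.19 ± 0.41, adjusted p = 0.00254). Cd74 was lower in conditioned medium (-5.20 ± 0.66, adjusted p = 0.000205). Their part in the calls of Tnnt1, Myom2, Tcap and Nebl at 24 h was not tested. Of 5 endothelial markers 4 were higher and 1 lower at 48 h in each medium, with Tek at 2.91 ± 0.35 in unconditioned (adjusted p = 0.000244) and 2.65 ± 0.35 in conditioned medium (adjusted p = 7.2e-05) and Kdr at -2.15 ± 0.36 and -1.66 ± 0.36 (adjusted p = 0.00249 and 0.016). Of 6 smooth muscle and pericyte markers 3 were higher at 48 h in each medium, and of 4 fibroblast markers 3 in unconditioned and 1 in conditioned medium, where Postn (periostin) was called in each. Summed intensity of the smooth muscle list was 17840 to 31730 at time zero. At 24 h it was 48750 to 55640 in unconditioned, the highest of the groups, and 34090 to 37270 in conditioned medium. At 48 h it was 32770 to 44110 and 46500 to 48630. The sum of the fibroblast list was 2305 to 4153 at time zero. In unconditioned and conditioned medium it was 4969 to 5804 and 4107 to 5646 at 24 h. At 48 h it was 6178 to 10690 and 5385 to 6153. Dcn, Lum and Pdgfra of the fibroblast list, Rgs5 of the smooth muscle list and Ptprc of the leukocyte list were below the filter. Tpm1 and Tpm2 are also genes of smooth muscle, and the part of these cells in their changes was not tested. Of 5 leukocyte markers 1, Cd14, was higher at 48 h in unconditioned medium (1.17 ± 0.31, adjusted p = 0.0448). In conditioned medium at 48 h 1, Cd74, was lower (-5.41 ± 0.66, adjusted p = 8.25e-05). Cd74 was at -3.79 ± 0.54 for the medium over both times (adjusted p = 0.0014).

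Other genes of the sarcomere, its membrane anchors and its chaperones, a list of 61 with 49 tested, gave few calls for the medium. Over both times 1 was called, Mybphl (a myosin-binding protein of the atrium), at -1.43 ± 0.30 (adjusted p = 0.0349). At 24 h or 48 h none was called by limma. An unadjusted p under 0.05 was reached by 5 and 8 of 49 there, beside 1254 and 2060 of the 23694 probes. Against time zero Pdlim4, a PDZ and LIM protein of actin bundles, was higher in all groups, at 3.39 ± 0.33 and 2.29 ± 0.33 at 24 h and 3.28 ± 0.33 and 2.39 ± 0.33 at 48 h, unconditioned before conditioned (adjusted p = 7.4e-05, 0.000214, 4.14e-05 and 9.4e-05). Smyd1, a methyltransferase and myosin chaperone of striated muscle, was higher at 24 h in unconditioned medium (1.03 ± 0.28, adjusted p = 0.0462) and at 48 h in unconditioned (1.36 ± 0.28, adjusted p = 0.00911) and conditioned medium (0.95 ± 0.28, adjusted p = 0.0206). In conditioned medium at 48 h 9 of 49 were higher and 2 lower, beside 5.39% and 1.07% of all probes. The higher ones were Tpm4 (1.39), Tmod3 (1.13), Actn1 (1.20), Pdlim1 (1.13), Pdlim7 (1.19), Parva (1.31) and Itga7 (1.26), beside Pdlim4 and Smyd1. Mybphl and Mybph were the lower ones.

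None of the 12 tested transcription factors and cofactors that control sarcomere genes was called in any comparison by limma, and 4 of their 96 tests had an unadjusted p under 0.05. Nkx2-5 was at -0.92 ± 0.35 in unconditioned medium at 48 h (unadjusted p = 0.0194, adjusted p = 0.234), Srf at 0.55 ± 0.32 in unconditioned medium at 24 h (unadjusted p = 0.033, adjusted p = 0.448) and Prox1 at -2.48 ± 0.80 for the medium at 48 h (unadjusted p = 0.01, adjusted p = 0.405). Over both times 11 of the 12 lay below the all-probe median, the median of the 12 being -0.27.

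The smaller design, with 1 array in each medium group and 2 at time zero, was compared by value without a test. Of the genes on both designs 18 were above the filter on each. The direction was the same for 14 of 18 for the medium at 24 h, 12 at 48 h and 16 over both times, where the median of the 18 was -0.36 on the smaller and -0.24 on the larger design. The upper to lower quartile ratio of the 2 conditioned arrays of the smaller design was 16.6 and 16.3, against 27.2 to 54.1 on the other 4, so the spread of intensity went with the medium there. For 4 of the 18 (Ldb3, Mybpc3, Tmod1 and Tpm1) the probe of the smaller design did not match the brightest one of the larger design by accession, and over the other 14 the direction was the same for 12, 9 and 13. Of the called genes among these 14 the direction was the same in 1 of 1 in conditioned medium at 24 h (Tcap) and 2 of 2 in each medium at 48 h (Tcap and Tpm2). Tpm2 read 5363 and 6838 at time zero, 11860 and 14580 in unconditioned medium at 24 h and 48 h, and 5579 and 10350 in conditioned medium. Both arrays at 48 h were above time zero. The conditioned 24 h array lay within the time zero range, unlike on the larger design. The Tpm2 difference for the medium at 24 h was -0.80 on the smaller and -0.15 on the larger design. The Tpm1 probe of the smaller design matched the dimmer one of the larger design by accession, so its value of 0.36 in conditioned medium at 48 h is not a repeat of the brighter probe. The Cryab probe of the smaller design was at the lowest value on all 6 arrays, and Tnni2 and Myot did not pass the filter there.

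**Figure D5:**
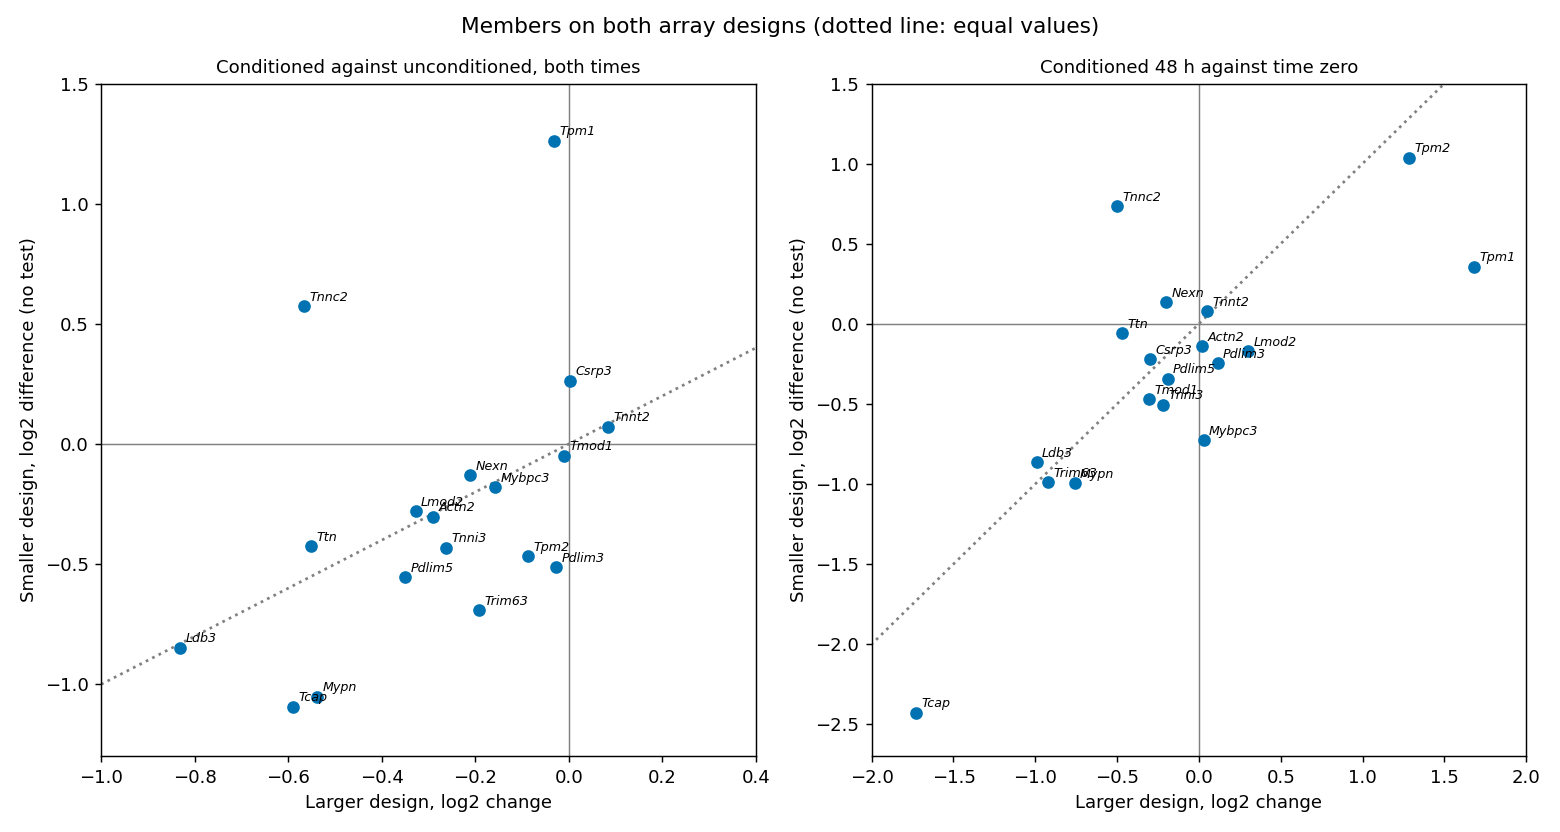
Log2 difference on the smaller design (vertical axis, no test) against log2 change on the larger design (horizontal axis) for the 18 genes above the filter on both, for the medium effect over both times (left) and conditioned medium at 48 h against time zero (right). The dotted line marks equal values. On the left 16 of 18 genes have the same direction on both. On the right Tpm2 (1.29 and 1.04) lies near the line. Tcap (-1.73 and -2.43) has the same direction on both but lies below the line, and Tpm1 is measured by different probes.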

How the data were processed

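Per the labels, RNA was extracted with Trizol LS, labelled with biotin and hybridised to CodeLink arrays of 2 designs (12 and 6 arrays). The deposited values are linear intensity, one value per probe and array, and what scanner and software the authors used, and how they corrected background or normalized, is not given in the sources used here. Array medians ran from 70.3 to 144 on the larger and from 214 to 416 on the smaller design, and the number of arrays limits the precision. Each array was scaled to the geometric mean of the medians of its design, values were floored at 0.05 of it (intensity 4.78 and 14.7), which held for 17% and 17.7% of values, and taken to log2. A probe had to exceed the 30th percentile of mean intensity, as did 23694 of 33849 and 6934 of 9906. The larger design was fitted in R 4.3.3 by limma 3.58.1 (lmFit and trended eBayes, 5 groups, 7 residual and 10.4 prior degrees of freedom), with Benjamini-Hochberg adjustment over all tested probes.

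Genes were assigned through the platform annotation, and 16753 probes of the larger design had 1 gene, 165 several and 16931 none. Only probes with 1 gene were used. The median change of all tested probes, which was subtracted from the changes shown, was 0.09 over both times for the medium, 0.01 at 24 h, 0.18 at 48 h, and 0.18 for the difference of the 24 h and 48 h effects. Against time zero it was 0.19 and 0.18 at 24 h and 0.01 and 0.16 at 48 h, unconditioned before conditioned. With scaling to the 75th percentile these medians lay between -0.05 and 0.01. The fit was tested on simulated data. Replicate numbers follow the order of deposit and pair nothing. Named genes were all members, with full statistics for called ones and, in each comparison with under 5 calls, for those with the smallest p up to 5. Members and lists were chosen with earlier results of these data known. Promoter sequences came from RefSeq. Plots used Python 3.11.15 and matplotlib 3.10.9.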

Additional observations from a re-analysis of the deposited data

Results flagged for a closer look

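Tnnc2, fast skeletal troponin C, read 3216 on time zero replicate 4, against 273 to 325 on the other 3 time zero arrays. The gap to the nearest array was 0.929 of the range of the group, above Dixon's critical value at 95% for 4 arrays. It was the 1 gene so marked of 35 tested, and chance marks about 1 in 20 groups. Myoz1, another gene of fast fibres, read 494 on the same array against 123 to 218 on the other 3.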

How the results depend on the processing

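In 23 alternatives applied to 48 results, 936 values kept their direction and side of the threshold or stayed near the reported count, 62 lost and 54 gained a call, 52 counts moved by over 1.5 times, and 0 turned. The calls of Tnnt1 over both times and in unconditioned medium, and of Myom2 in conditioned medium against time zero, held in every alternative run. Counts of called genes below are given in the order medium over both times, at 24 h, at 48 h, then unconditioned 24 h, conditioned 24 h, unconditioned 48 h and conditioned 48 h against time zero, where the reported counts were 2, 2, 0, 1, 3, 3 and 5. Quantile normalization gave 9, 4, 3, 5, 11, 9 and 13, and leaving out the 3 arrays that stood apart gave 11, 7, 2, 2, 11, 5 and 13. The share of all probes called in each alternative is not given here. Whether the list gained or lost more calls than the whole array was therefore not tested. Scaling to the 75th percentile gave 6 over both times, 1 at 48 h, and 3, 7, 7 and 9 against time zero. No filter gave 1 over both times, 0 at 24 h, 1 in conditioned medium at 24 h and 1 in unconditioned medium at 48 h, where a filter at the 50th percentile gave 5. No intensity trend gave 0 for the medium at 24 h, 1 in conditioned medium at 24 h and 1 in unconditioned medium at 48 h. Array weights gave 6 for the medium at 24 h, 9 in conditioned medium at 24 h and 10 in conditioned medium at 48 h, and only the groups compared gave 6, 1 in conditioned medium at 24 h and 1 in unconditioned medium at 48 h. Leaving out 1 array at a time gave 2 to 3 over both times, 0 to 2 at 24 h, 0 to 0 at 48 h, 0 to 0 for the difference of the medium effects, 1 to 1 in unconditioned and 1 to 3 in conditioned medium at 24 h, and 1 to 6 at 48 h in each medium. Of these, the 6 in unconditioned medium at 48 h came without time zero replicate 4, and the 0 at 24 h without unconditioned 24 h replicate 3 or conditioned 24 h replicate 2 or 3. The single arrays that lowered a count against time zero were those whose omission ended the calls of Tcap, Nebl, Tpm1 and Tpm2 given above. The quantile normalization and the omission of the 3 arrays moved the most counts. The cause was not tested. No paired analysis was possible because the labels carry no replicate numbers. With 2 arrays in a group, changes as large as some called ones went uncalled, and smaller ones may have too. Myom2 at -1.36 for the medium at 48 h was not called. Tpm2 at 1.29 in conditioned medium at 48 h against time zero was.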
